A study of Mus musculus with 6 samples.

Results

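The Hox genes of the mouse were examined in the whole epididymis of adult C57BL/6 mice, either wild type (WT) or lacking occludin (genotype Ocln-/-, here Ocln-KO), with 3 libraries of each genotype. Every row of the count table whose symbol is Hox, a cluster letter from a to d and a number was taken, which gave 39 genes of the 57127 listed. Of these, 32 had at least 1 count in 1 of the 6 libraries and 28 were abundant enough to be tested. Ocln-KO males were bred from heterozygous parents. The methods of the study speak of pairs of mice without saying what a pair shares. The organ was taken whole, so its regions are not told apart, and in such bulk RNA fewer cells of a type and less RNA per cell cannot be told apart either.

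Hox genes encode homeodomain transcription factors and lie in 4 clusters, Hoxa on chromosome 6, Hoxb on chromosome 11, Hoxc on chromosome 15 and Hoxd on chromosome 2. Genes with the same number in different clusters are paralogs. Their order along a cluster mirrors the order in which they are switched on from head to tail in the embryo, low numbers anteriorly and high numbers posteriorly. In the male tract the high-numbered genes help to set the boundary between epididymis and vas deferens, and mice without Hoxa10 or Hoxa11 show a vas deferens with features of the epididymis. Adult tissues keep much of this code, in epithelium and in the surrounding stroma.

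Each library held between 30646424 and 38870780 counts, of which Hox genes took between 39206 and 40778 in WT and between 45140 and 52519 in Ocln-KO. Counts were scaled to CPM (counts per 1000000 counts of the scaled library) with TMM factors, a normalisation that balances the bulk of the genes, and 1 count was then worth between 0.0267 and 0.0314 CPM. Ocln itself stood at 85.4 ± 6.50 CPM in WT libraries and at 15.1 ± 0.231 CPM in those of Ocln-KO (SD, n = 3 each). On the first principal component, which held 47.2% of the variance, Ocln-KO replicate 3 stood apart at 86.3, against 17.7 and 29.1 for the other Ocln-KO libraries and -52.8 to -37.0 for WT. The records of the samples name prefrontal cortex in one extraction protocol, a forebrain tissue in which Hox genes are largely silent. Here Snap25, a gene of nerve endings, had 4 counts in all 6 libraries together, whereas Crisp1, a secretory product of the epididymis, had 14880 ± 2186 CPM (SD, n = 3) in WT.

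Several Hox clusters also carry microRNA genes, and their mature sequences are shown because the locus of one of them rose with the Hox genes around it and because another pairs with a Hox transcript described here. The seed, bases 2 to 8, is in capitals, and the sequences are those of RefSeq on GRCm38.p6.
miR-10a-5p (Hoxb cluster, chr11:96317186-96317208, plus strand): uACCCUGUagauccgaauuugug
miR-10b-5p (Hoxd cluster, chr2:74726074-74726096, plus strand): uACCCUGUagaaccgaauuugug
miR-196a-5p (Hoxb cluster, chr11:96265187-96265208, and Hoxc cluster, chr15:102973365-102973386, both plus strand): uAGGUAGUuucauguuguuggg
miR-196b-5p (Hoxa cluster, chr6:52230129-52230150, minus strand): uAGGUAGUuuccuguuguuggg
The pairs share a seed, ACCCUGU for miR-10 and AGGUAGU for miR-196. Counted from the 5′ end, miR-10b-5p differs from miR-10a-5p by U12A, and miR-196b-5p differs from miR-196a-5p by A12C. miR-196 is known to direct cleavage of the Hoxb8 transcript. In the 3′ untranslated region of Hoxb8, on GRCm38 at chr11:96284888-96284909 on the plus strand, 21 of 22 bases were complementary to miR-196a-5p. They are in capitals, and the base left in lower case is U5G in the microRNA's numbering, a U opposite a G within the seed.
Hoxb8 site: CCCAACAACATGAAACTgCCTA

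In WT, Hox transcripts came mainly from the Hoxb and Hoxd clusters and from paralogs 4 to 8. Levels of different genes were compared per kb of exon. On this scale the Hoxb genes held 55.9 ± 1.15% of the summed Hox level in WT, the Hoxd genes 29.4 ± 0.351%, the Hoxc genes 11.7 ± 0.601% and the Hoxa genes 2.99 ± 0.288% (SD, n = 3 each). Paralogs 4 to 8 held 78.1 ± 0.642%, paralogs 1 to 3 held 11.1 ± 0.465% and paralogs 9 to 13 held 10.8 ± 1.10% (SD, n = 3 each). The highest WT levels were those of Hoxb6 at 61.0 ± 6.14, Hoxd8 at 59.5 ± 3.54, Hoxb8 at 51.5 ± 4.64 and Hoxb7 at 50.6 ± 1.91 CPM per kb (SD, n = 3 each). They were followed by Hoxd4 at 31.0 ± 4.34, Hoxc6 at 28.5 ± 2.28, Hoxd9 at 22.7 ± 0.943, Hoxb3 at 21.1 ± 2.85, Hoxb4 at 19.2 ± 2.59 and Hoxb9 at 16.6 ± 4.76 CPM per kb (SD, n = 3 each). The WT libraries of neighbours in this order overlapped for Hoxb6 and Hoxd8, for Hoxb8 and Hoxb7, for Hoxd4 and Hoxc6, and for each step from Hoxd9 to Hoxb9. Over all 28 genes tested, 18 of 27 neighbouring pairs overlapped. In the Hoxa cluster the highest level was that of Hoxa5, at 2.60 ± 0.222 CPM per kb (SD, n = 3), but this place depended on the length used. Per kb of the longest RefSeq transcript, Hoxa3 at 5.12 and Hoxa9 at 3.41 lay above Hoxa5 at 2.60 in WT.

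**Figure D1:**
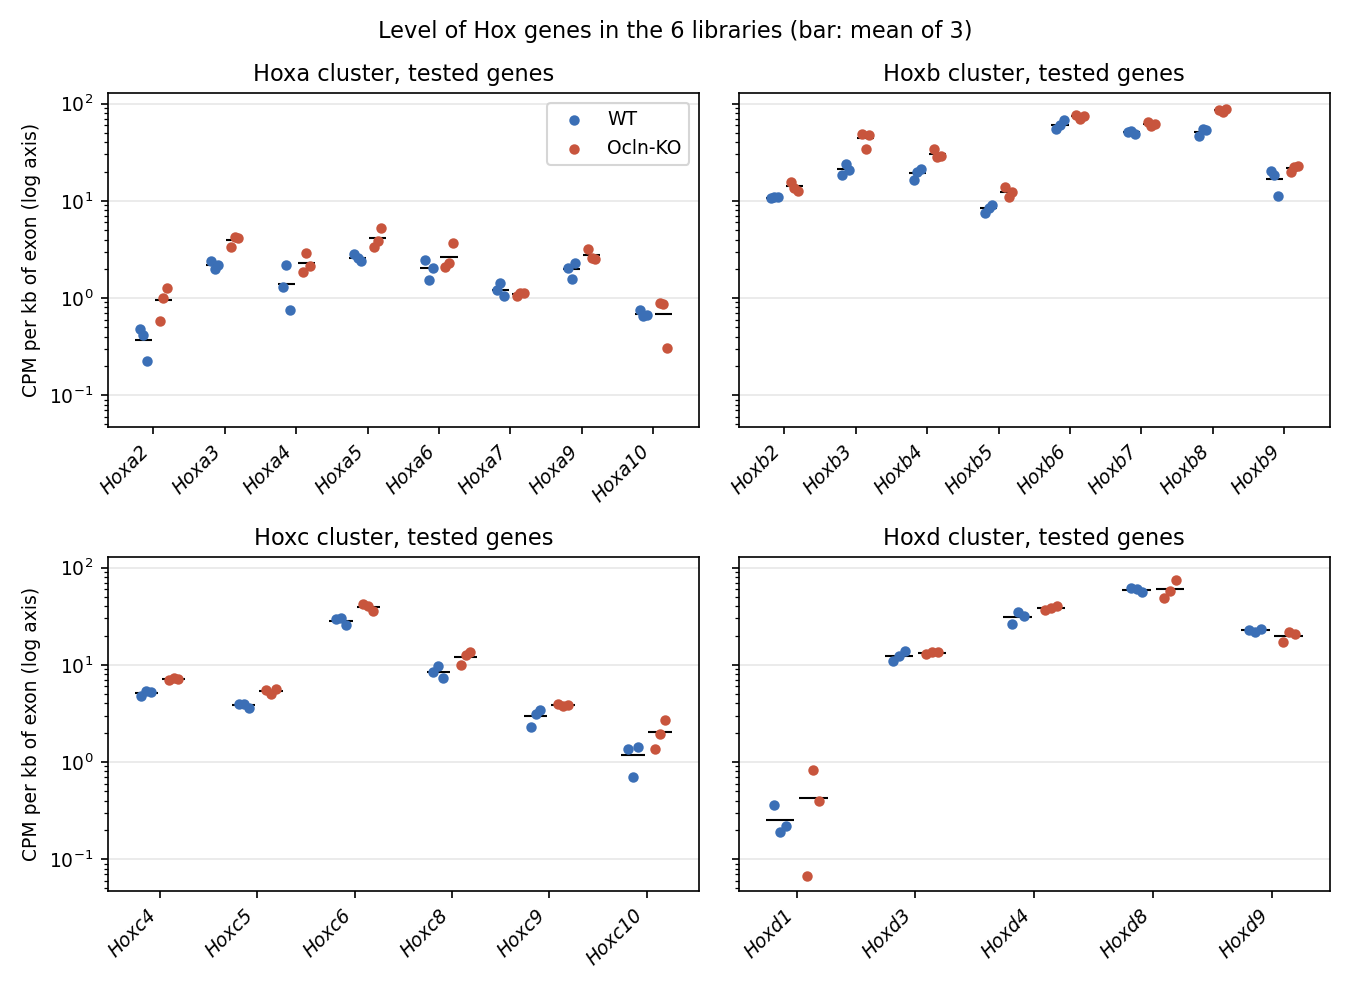
Level of 27 tested Hox genes in CPM per kb of exon on a log axis, with 1 panel for each cluster and genes ordered by paralog number. Points are libraries (3 WT, 3 Ocln-KO) and bars are means, and Hoxb6, Hoxb7, Hoxb8 and Hoxd8 lie highest in WT while the Hoxa genes lie lowest as a cluster.

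At the 5′ end of each cluster, where the highest numbers lie, almost nothing was counted. Hoxa11, Hoxa13, Hoxc11, Hoxc12, Hoxc13, Hoxd11 and Hoxd13 were listed at 0 in all 6 libraries, Hoxb13 had 1 count in WT replicate 3, and Hoxd12 had 1 count in Ocln-KO replicate 2. A count of 0 allows up to 3 counts, or between 0.0801 and 0.0941 CPM per library. The noncoding RNAs that lie in or beside these ends, Hotair, Hottip and Hoxa11os, were also listed at 0, as was Evx2, a homeobox gene next to Hoxd13. Hoxd10 was at the edge of detection, with 0, 1 and 3 counts in WT and 4, 14 and 3 in Ocln-KO. At the opposite end, Hoxb1 had no count in WT and 1 count in each Ocln-KO library. The highest-numbered genes with a level that could be tested were Hoxa10 and Hoxc10, at 0.691 ± 0.0531 and 1.17 ± 0.401 CPM per kb in WT (SD, n = 3 each). A listed 0 is not absence of transcript, since some broadly used genes were near 0 here too, among them Pbx2 at 0.109 CPM and Ring1 at 0.0910 CPM in WT. Hoxa11 also shares 35.0% of its exon bases with Hoxa11os on the other strand, and the strand setting of the counting is not stated.

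The genotypes were compared for the level of Hox transcripts in bulk RNA of the whole organ. Most Hox genes had higher values in Ocln-KO, and none fell by the test. Of the 28 genes tested, 25 had a higher fitted level in Ocln-KO, or 24 to 26 over the alternatives that tested the same genes, where 50.9% of all 19691 tested genes did. With an adjusted p under 0.05 (edgeR quasi-likelihood F test, adjusted by Benjamini-Hochberg over all genes tested), 8 Hox genes rose and 0 fell, whereas 3.91% of all tested genes rose and 5.04% fell, 8.95% in all. These 8 were Hoxa3, Hoxb3, Hoxb4, Hoxb5, Hoxb8, Hoxc4, Hoxc5 and Hoxc6. By unadjusted p under 0.05, 16 were higher and 0 lower, where 13.9% of all tested genes were higher and 15.2% lower. DESeq2 called 12 Hox genes higher and limma-voom 8, and neither called one lower, where they called 8.15% and 3.7% of all tested genes higher. For 17 of the 28 all Ocln-KO libraries lay above all WT libraries and for 0 below them, where 16.9% of tested genes were higher and 19.4% lower without overlap. The median log2 fold change of the 28 genes was 0.48, against 0.01 over all genes tested. All 28 reached the count filter in each WT library, so none was tested only because it was high in Ocln-KO.

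The summed Hox level was 1054, 1148 and 1097 CPM across the WT libraries and 1481, 1416 and 1553 CPM across those of Ocln-KO, so that every Ocln-KO library lay above every WT library. The calls depended on single libraries and on the design of the fit. With the replicate number as a block, none of the 8 had an adjusted p under 0.05 (Hoxb8 0.0673, Hoxb3 0.081), while 15 Hox genes had an unadjusted p under 0.05. Without WT replicates 1, 2 and 3 the 8 calls became 0, 2 and 0, with 14, 15 and 15 Hox genes at an unadjusted p under 0.05, and over all genes the higher calls fell from 770 to 4, 85 and 16. Without Ocln-KO replicates 1 and 2 they became 5 and 2, and without Ocln-KO replicate 3, the library that stood apart, 7. Hoxb3 and Hoxb8 kept an adjusted p under 0.05 in 11 of 14 alternatives each, Hoxa3 and Hoxb4 in 9, Hoxb5 and Hoxc6 in 8, and Hoxc4 and Hoxc5 in 6, with no change of sign. The median log2 fold change of the Hox genes stayed between 0.42 and 0.57 over all alternatives.

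**Figure D2:**
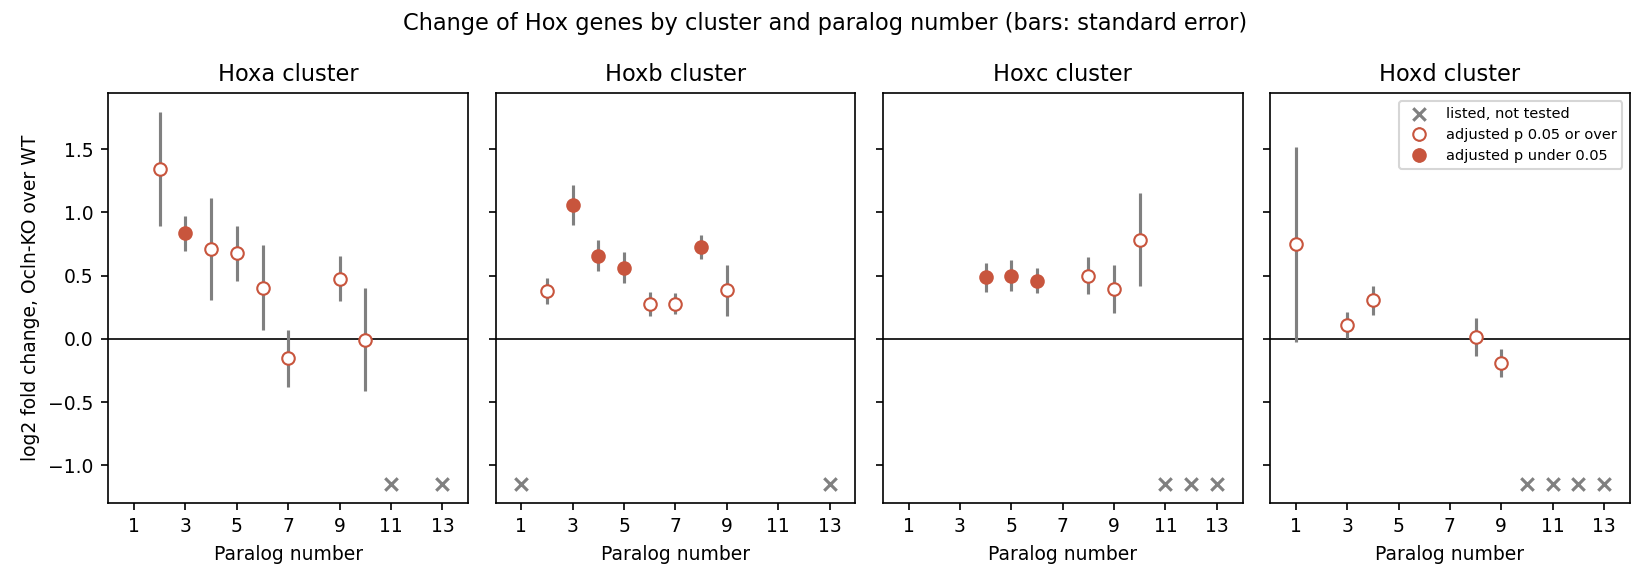
Log2 fold change of Hox genes, Ocln-KO over WT, against paralog number, with 1 panel for each cluster and bars for the standard error. Filled points passed the adjusted p of 0.05 and crosses mark genes that were not tested, and the filled points lie at paralogs 3 to 8 of the Hoxa, Hoxb and Hoxc clusters, all above 0.

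In the Hoxb cluster all 8 tested genes had a higher fitted level in Ocln-KO and 4 rose with an adjusted p under 0.05, and the median log2 fold change was 0.47. Hoxb3, a paralog 3 gene with roles in hindbrain and pharyngeal patterning (chromosome 11, 96307101 to 96347930), had 78.1, 102 and 88.5 CPM across the WT libraries and 208, 147 and 205 CPM across those of Ocln-KO. The groups did not overlap, and the log2 fold change of 1.06 (standard error, SE, 0.16, edgeR adjusted p = 0.0165) made it the only Hox gene past a 2-fold change with an adjusted p under 0.05, where 3.19% of tested genes passed both thresholds. Hoxb4, known for its action in blood stem cells (chromosome 11, 96318267 to 96321638), had 42.0, 50.8 and 55.1 CPM across the WT libraries and 86.9, 72.9 and 73.8 CPM across those of Ocln-KO. Its fitted log2 change was 0.66 (SE 0.13, edgeR adjusted p = 0.0265). Hoxb5, which acts in development of the enteric nervous system and lung (chromosome 11, 96303512 to 96306121), had 20.7, 23.8 and 25.5 CPM across the WT libraries and 38.3, 30.7 and 34.4 CPM across those of Ocln-KO. The span of Hoxb3 contains Hoxb4 and Mir10a, so reads of the 3 may have been split differently from their origin. By the exons used here, though, Hoxb3 and Hoxb4 share 0.0% of their exon bases with other listed genes. Hoxb5 rose by 0.56 on the log2 scale (SE 0.12, edgeR adjusted p = 0.0355).

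Hoxb8, a regulator of myeloid and microglial cells among other roles (chromosome 11, 96279401 to 96285325), had the smallest adjusted p of all Hox genes. It had 122, 145 and 140 CPM across the WT libraries and 226, 214 and 234 CPM across those of Ocln-KO, a log2 change of 0.73 (SE 0.10, edgeR adjusted p = 0.0126). Its transcript is the one that carries the miR-196 site printed above. In Ocln-KO it had the highest level per kb of all Hox genes, 85.2 CPM per kb, where it was the third in WT. Over 14 alternatives its log2 fold change lay between 0.65 and 0.81 and its adjusted p was under 0.05 in 11, reaching 0.075 at most.

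The neighbours of these genes in the Hoxb cluster were higher by less. Hoxb6, the Hox gene with the highest level per kb in WT, had 109, 118 and 133 CPM across the WT libraries and 150, 138 and 148 CPM across those of Ocln-KO, with no overlap, a log2 change of 0.28 and an edgeR adjusted p of 0.112. Hoxb2 and Hoxb7 also did not overlap between genotypes, at log2 changes of 0.38 and 0.28 (edgeR adjusted p = 0.0563 and 0.0703). Hoxb9 overlapped, at 29.0 to 52.2 CPM across WT libraries and 51.3 to 58.4 CPM across Ocln-KO libraries. Ratios of counts within a library need no scaling between libraries. Hoxb3 over Hoxb6 was 0.717, 0.868 and 0.667 across the WT libraries and 1.39, 1.07 and 1.39 across those of Ocln-KO. Hoxb8 over Hoxb7 was 1.55, 1.79 and 1.87 across the WT libraries and 2.28, 2.36 and 2.47 across those of Ocln-KO. Both ratios were higher in every Ocln-KO library than in any WT library. They were chosen after the values were seen and were not tested.

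The locus of Mir10a lies between Hoxb5 and Hoxb4, within the span of Hoxb3, and since the libraries hold long RNA, reads there do not measure the mature microRNA and cannot be told apart from Hoxb3 precursor RNA. Together with the other microRNA loci of the clusters it was added after the Hox values were known. It had 1.28, 2.08 and 1.21 CPM across the WT libraries and 3.67, 2.95 and 4.05 CPM across those of Ocln-KO. With no overlap, its log2 fold change was 1.22 (SE 0.31, edgeR adjusted p = 0.0494), and the adjusted p was under 0.05 in 7 of 14 alternatives. Mir10b in the Hoxd cluster overlapped between genotypes, with a log2 change of 0.46 (edgeR adjusted p = 0.662). Mir196a-1, beside Hoxb9, had a log2 change of 0.73 (edgeR adjusted p = 0.366). Mir196a-2, in the Hoxc cluster between Hoxc10 and Hoxc9, had 8, 14 and 10 counts in WT and 2, 1 and 2 counts in Ocln-KO, and like Mir196b it was too low to be tested.

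In the Hoxc cluster all 6 tested genes had a higher fitted level in Ocln-KO, with log2 fold changes from 0.39 to 0.78. Hoxc4, Hoxc5 and Hoxc6 rose to a like degree and lie side by side on chromosome 15. There they are known to share upstream promoters and exons, so that the split of reads among them is uncertain. By the exons used here, Hoxc4 and Hoxc6 share 0.0% of their exon bases with other listed genes, and Hoxc5 shares 5.4%, with Hoxc10. Hoxc6 (102998226 to 103011882), the member of the cluster with the highest level per kb, had 70.8, 72.8 and 62.5 CPM across the WT libraries and 102, 96.0 and 86.0 CPM across those of Ocln-KO, a log2 change of 0.46 (SE 0.10, edgeR adjusted p = 0.0362). Hoxc4 (103018097 to 103036856) had 12.2, 13.7 and 13.6 CPM across the WT libraries and 18.0, 18.8 and 18.5 CPM across those of Ocln-KO, a log2 change of 0.49 (SE 0.11, edgeR adjusted p = 0.0413). Hoxc5 (103014008 to 103017429) had 12.3, 12.2 and 11.1 CPM across the WT libraries and 17.0, 15.6 and 17.6 CPM across those of Ocln-KO, a log2 change of 0.50 (SE 0.12, edgeR adjusted p = 0.0458). In none of these genes did the genotypes overlap. Hoxc8 and Hoxc9 did not overlap either, with edgeR adjusted p of 0.0729 and 0.208, while Hoxc10 did.

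In the Hoxa cluster, the least abundant per kb, 7 of 9 tested genes had a higher fitted level in Ocln-KO and 1 passed the test. This was Hoxa3, the paralog of Hoxb3 and a gene needed for thymus and parathyroid development (chromosome 6, 52169059 to 52213067). It had 14.6, 12.0 and 13.3 CPM across the WT libraries and 20.3, 25.6 and 25.1 CPM across those of Ocln-KO, a log2 change of 0.83 (SE 0.14, edgeR adjusted p = 0.0205). Its span covers Hoxa4, Hoxa5 and Hoxa6, and 18.2% of its exon bases are shared with other listed genes, so part of its reads could have been assigned elsewhere. Hoxa2, which patterns the second pharyngeal arch, had the highest log2 fold change of all Hox genes, 1.34 (standard error 0.45), but did not pass the test (adjusted p = 0.098). At 0.855, 0.732 and 0.404 CPM across the WT libraries and 1.03, 1.79 and 2.25 CPM across those of Ocln-KO, it did not overlap between genotypes and rested on 15 to 76 counts a library. Hoxa4 and Hoxa6 overlapped, with log2 changes of 0.71 and 0.41 (edgeR adjusted p = 0.282 and 0.471). Hoxa5 had 5.34, 4.80 and 4.52 CPM across the WT libraries and 6.23, 7.28 and 9.94 CPM across those of Ocln-KO, without overlap and with an adjusted p of 0.0897. Hoxa9 did not overlap either, at 8.76 to 12.9 CPM across WT libraries and 13.99 to 17.6 CPM across Ocln-KO libraries (edgeR adjusted p = 0.129). Hoxa7, at 3.44, 4.07 and 3.04 CPM across the WT libraries and 2.99, 3.26 and 3.22 CPM across those of Ocln-KO, had a log2 change of -0.16 (edgeR adjusted p = 0.691). It shares 20.4% of its exon bases with Hoxaas3, another listed gene. Hoxa10, which takes part in uterine and male tract patterning, had 2.46, 2.14 and 2.18 CPM across the WT libraries and 2.90, 2.85 and 1.005 CPM across those of Ocln-KO. Its fitted log2 change was -0.01 (95% interval -0.95 to 0.94, edgeR adjusted p = 0.995), and it turned to 0.35 without Ocln-KO replicate 3 and to 0.08 with total counts only.

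In the Hoxd cluster no gene passed the edgeR test, nor that of DESeq2 or limma-voom, and 1 (Hoxd4) had an unadjusted p under 0.05, while the median log2 fold change of its 5 tested genes was 0.11. Hoxd8, the most abundant of them, had 171, 166 and 152 CPM across the WT libraries and 135, 156 and 203 CPM across those of Ocln-KO, so that the Ocln-KO libraries lay on both sides of the WT libraries. Its fitted log2 change was 0.01 with a 95% interval from -0.33 to 0.36 (edgeR adjusted p = 0.963). Its sign turned with limma-voom, at -0.01, and without Ocln-KO replicate 3, at -0.16. Hoxd9 had the lowest log2 fold change of all Hox genes, -0.19 (95% interval -0.45 to 0.06, adjusted p = 0.29), from 49.1, 46.3 and 50.2 CPM in WT to 36.3, 46.4 and 44.6 CPM in Ocln-KO, which overlapped by the value of 1 library. Hoxd3, at 45.9 to 57.7 CPM across WT libraries and 54.1 to 57.0 CPM across Ocln-KO libraries, overlapped, and its 95% interval ran from -0.13 to 0.35. Hoxd4 did not overlap, with a log2 change of 0.30 (edgeR adjusted p = 0.13). Hoxd3 and Hoxd4 share 9.8% and 13.2% of their exon bases with other listed genes, each other among them. Part of their reads could thus have been assigned elsewhere. Hoxd1, at 4 to 49 counts a library, had a log2 change of 0.75 (edgeR adjusted p = 0.567), which turned to -0.13 without Ocln-KO replicate 2. Hoxb8 over Hoxd8, a ratio of counts within a library that was chosen after the values were seen, was 0.713, 0.871 and 0.923 across the WT libraries and 1.67, 1.37 and 1.15 across those of Ocln-KO. Per kb of exon the order of these paralogs changed too. Hoxd8 lay at 62.3, 60.7 and 55.5 and Hoxb8 at 46.3, 55.0 and 53.3 CPM per kb in the WT libraries, against 49.2, 57.0 and 73.9 for Hoxd8 and 85.7, 81.2 and 88.8 for Hoxb8 in the Ocln-KO libraries. Hoxd8 was thus the higher in each WT library and Hoxb8 in each Ocln-KO library.

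The 250 bases before a transcript start of Hoxb8 and of Hoxd8, as RefSeq lists them, are shown because these paralogs were of like abundance in WT and differed in Ocln-KO. Both strands were searched for the CCAAT box and the E-box CACGTG, for the TATA motif TATAAA and for TGATNNAT, a joint motif of Hox and Pbx, and matches are in capitals. The Hoxb8 start used here lies inside the span of the gene given above, which begins further upstream, whereas that of Hoxd8 is the start of its span.
Hoxb8 (GRCm38.p6, chr11:96281655-96281904, plus strand): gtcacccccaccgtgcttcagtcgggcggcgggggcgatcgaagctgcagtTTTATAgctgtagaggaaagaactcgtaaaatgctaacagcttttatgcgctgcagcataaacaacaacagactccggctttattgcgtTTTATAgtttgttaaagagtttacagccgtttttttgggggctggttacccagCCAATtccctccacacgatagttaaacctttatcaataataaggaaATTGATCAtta
Hoxd8 (GRCm38.p6, chr2:74704365-74704614, plus strand): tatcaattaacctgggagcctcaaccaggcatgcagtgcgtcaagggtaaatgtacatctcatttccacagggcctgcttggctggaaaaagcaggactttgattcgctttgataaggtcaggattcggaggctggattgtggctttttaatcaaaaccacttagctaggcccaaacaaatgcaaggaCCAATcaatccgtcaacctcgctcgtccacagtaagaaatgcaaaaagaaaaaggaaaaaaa
Each holds 1 CCAAT, which 33.8% of all 32851 promoters in the table hold. The Hoxb8 sequence also has 2 TATAAA and 1 TGATNNAT, found in 12.4% and 7.68% of all promoters, and the Hoxd8 sequence has neither. Both are 44.4% G and C, with 12 and 6 CG dinucleotides. The table has an entry for 22 of the 39 Hox genes, and in their 24 promoters the median was 58.6% G and C and 12.5 CG dinucleotides, against 52.4% and 6.0 in all promoters. A match says only that the letters are there.

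By paralog number, the median log2 fold change was 0.75 over the 7 tested genes of paralogs 1 to 3, 0.49 over the 15 of paralogs 4 to 8 and 0.39 over the 6 of paralogs 9 and 10, and called genes numbered 2, 6 and 0. The 0.75 is the value of Hoxd1, which had 4 to 49 counts a library (SE 0.77, edgeR adjusted p = 0.567). Hoxd1 turned to -0.13 without Ocln-KO replicate 2, so the order of these medians is uncertain. The summed level of the paralog 3 genes Hoxa3, Hoxb3 and Hoxd3 was 139, 166 and 160 CPM across the WT libraries and 282, 229 and 287 CPM across those of Ocln-KO. That of the paralog 9 genes was 118, 110 and 101 CPM across the WT libraries and 115, 128 and 126 CPM across those of Ocln-KO, which overlapped. As a share of the summed level per kb, paralogs 1 to 3 went from 11.1 ± 0.465% in WT to 13.7 ± 0.979% in Ocln-KO, and paralogs 9 to 13 from 10.8 ± 1.10% to 9.06 ± 0.822% (SD, n = 3 each). By cluster, the Hoxb share was 54.7, 56.0 and 57.0% in WT and 64.0, 59.1 and 59.5% in Ocln-KO, and the Hoxd share 29.8, 29.2 and 29.2% in WT and 20.6, 24.3 and 25.3% in Ocln-KO. In both clusters no Ocln-KO share lay within the WT range. The Hoxa and Hoxc shares overlapped. The shares sum to the whole, so a gain of one cluster lowers the others, and they are given without a test.

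**Figure D3:**
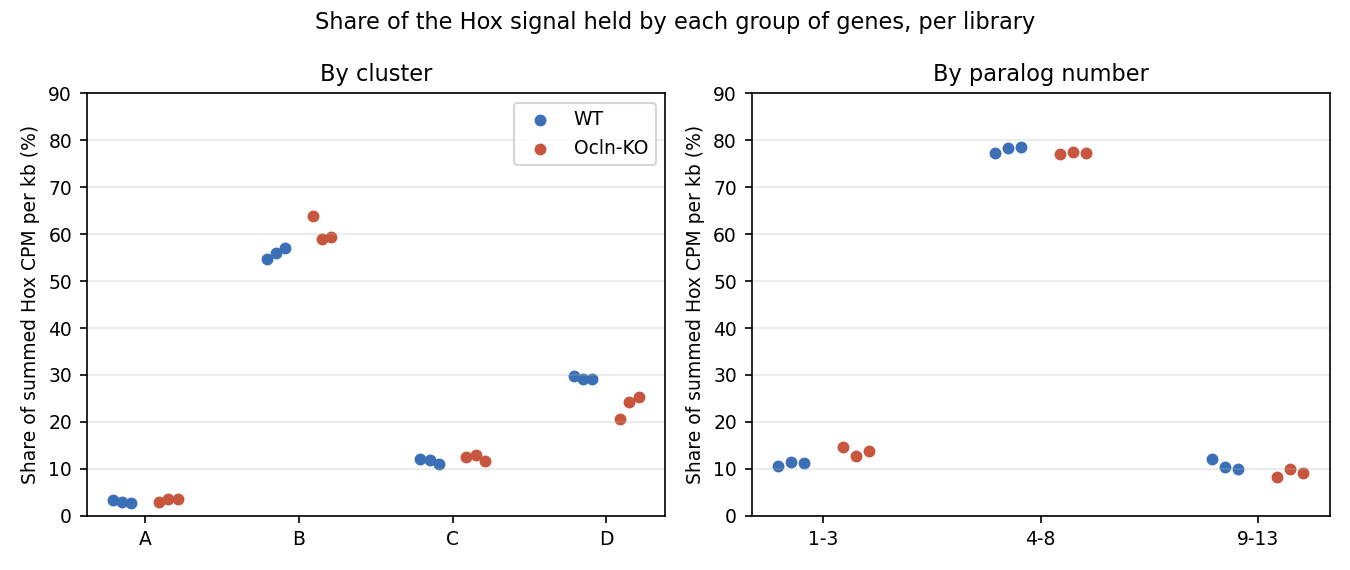
Share of the summed Hox level per kb of exon, in percent, held by each cluster (left) and by each range of paralog numbers (right), with 1 point for each of 3 WT and 3 Ocln-KO libraries. The Hoxb share lies higher and the Hoxd share lower in every Ocln-KO library than in any WT library.

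Hox proteins bind DNA together with cofactors of the TALE homeodomain class, encoded by the Meis, Pbx and Pknox genes. Of 9 such genes, 8 were tested, 2 rose and 0 fell, where 3.91% of all tested genes rose and 5.04% fell. The median log2 fold change of the 8 was 0.28. Meis1 had 25.2, 24.0 and 21.0 CPM across the WT libraries and 35.9, 36.2 and 39.5 CPM across those of Ocln-KO, a log2 change of 0.67 (SE 0.10, edgeR adjusted p = 0.0177). Meis3 had 2.32, 1.67 and 2.34 CPM across the WT libraries and 3.74, 5.11 and 4.38 CPM across those of Ocln-KO, a log2 change of 1.06 (SE 0.26, edgeR adjusted p = 0.0446). In neither did the genotypes overlap. Like the Hox calls, those of this and the following lists share the dependence of all genes on single libraries given above.

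Of the 24 Polycomb and Trithorax genes, which maintain Hox genes off or on, 23 were tested, 1 rose and 0 fell, with a median log2 fold change of 0.15. This count is near the share of all tested genes that rose, 3.91%. The one that rose was Kmt2a, a histone methyltransferase gene known for upholding Hox expression, with a log2 change of 0.38 (edgeR adjusted p = 0.037) between means of 168 ± 11.2 CPM for WT and 219 ± 3.67 CPM for Ocln-KO (SD, n = 3 each). Phc3, a Polycomb gene and the member with the highest level per kb, had a log2 change of 0.30 (edgeR adjusted p = 0.0744). Of the 19 genes of retinoic acid signalling and the Cdx factors, upstream regulators of Hox genes in the embryo, 13 were tested, with a median of 0.22. Of the 13, 2 rose and 0 fell, where 3.91% of all tested genes rose and 5.04% fell. The 2 that rose were Rarg, a retinoic acid receptor gene (0.67, edgeR adjusted p = 0.0483), and Stra6, a retinol transporter gene (1.30, edgeR adjusted p = 0.0416). Aldh1a1, a retinoic acid synthesis gene and the member with the highest level per kb, had a log2 change of -0.59 (edgeR adjusted p = 0.144). Cdx1, Cdx4 and the retinoic acid binding gene Crabp1 were listed at 0. Of the noncoding RNAs and Evx genes of the clusters, 12 of 16 were listed and 5 tested, and none passed the edgeR test, with 1 at an unadjusted p under 0.05. Hoxb5os, the one with the highest level per kb, overlapped between genotypes (log2 fold change -0.18, edgeR adjusted p = 0.58).

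Of the 18 transcription factors of the Wolffian duct, the embryonic source of the epididymis, and of the urogenital tract, 16 were tested. Their median log2 fold change was 0.07, and 3 rose and 0 fell, where 3.91% of all tested genes rose and 5.04% fell. Emx2, a homeobox gene needed for the urogenital tract, had 139, 147 and 140 CPM across the WT libraries and 216, 204 and 188 CPM across those of Ocln-KO, a log2 change of 0.51 (SE 0.09, edgeR adjusted p = 0.0213). Sox9 and Nr2f2 rose by 1.15 and 0.48 on the log2 scale (edgeR adjusted p = 0.042 and 0.0307). Pax8, an epithelial factor and the member with the highest level per kb, had a log2 change of -0.20 (edgeR adjusted p = 0.261). All Ocln-KO libraries lay above all WT libraries for 4 of the 16 and below them for 2, Esr1 and Gata2. Over all tested genes, 16.9% were higher and 19.4% lower without overlap. Esr1 and Gata2 did not pass the test, with log2 changes of -0.84 and -0.24 (edgeR adjusted p = 0.0505 and 0.142).

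Markers of several cell types moved between the genotypes along with the Hox genes. The counts of markers below stand beside shares of all tested genes, of which 3.91% rose and 5.04% fell. At an unadjusted p under 0.05, 13.9% of all tested genes were higher and 15.2% lower. The summed level of 5 smooth muscle markers was 1151 to 1386 CPM across WT libraries and 1566 to 2080 CPM across Ocln-KO libraries, and 1 of 5 rose, Myh11, with 5 of 5 at an unadjusted p under 0.05. That of 7 leukocyte markers was 79.9 to 102 CPM across WT libraries and 123 to 243 CPM across Ocln-KO libraries, with 1 of 5 tested higher, Ptprc, the pan-leukocyte gene, and 5 of 5 at an unadjusted p under 0.05. That of 3 basal cell markers was 130.5 to 131.2 CPM in WT and 156 to 180 CPM in Ocln-KO, and 1 of 3 rose, Krt14, with 2 of 3 at an unadjusted p under 0.05. The 3 clear cell markers summed to 57.9 to 74.9 CPM across WT libraries and 28.4 to 40.4 CPM across Ocln-KO libraries, and 3 of 3 fell. The 5 adipocyte markers summed to 7.16 to 13.1 CPM across WT libraries and 0.591 to 4.73 CPM across Ocln-KO libraries, with 0 of 5 called by edgeR and 2 at an unadjusted p under 0.05. None of the sums of these 5 lists overlapped between the genotypes. Their part in the Hox result was not tested.

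The summed level of 6 fibroblast markers overlapped, at 2494 to 2742 CPM across WT libraries and 1959, 2713 and 5455 CPM for Ocln-KO replicates 1, 2 and 3. Of these markers, 0 of 6 were called by edgeR and 2 had an unadjusted p under 0.05. Their part in the Hox result was not tested either. The summed level of 6 general epithelial markers also overlapped, at 1452 to 1624 CPM across WT libraries and 1235 to 1608 CPM across Ocln-KO libraries. Of the 6, 1 rose, Krt19, while 4 had a lower fitted level in Ocln-KO. An unadjusted p under 0.05 was reached by 2, Krt19 and Krt8. Krt8 was lower in each Ocln-KO library than in any WT library, with a log2 change of -0.31 (edgeR adjusted p = 0.108). The sums of the 4 endothelial and of the 4 spermatid and sperm markers overlapped, with no call. An unadjusted p under 0.05 was reached by 1 endothelial marker, Kdr, and by 0 spermatid and sperm markers. Kdr was lower without overlap, with a log2 change of -0.29 (edgeR adjusted p = 0.114), while the other 3 endothelial markers had a higher fitted level in Ocln-KO. The 11 initial segment and caput markers summed to 8264 to 11810 CPM across WT libraries and 6875 to 13040 CPM across Ocln-KO libraries. This sum was mostly Adam7 and Rnase9, with means of 7451 and 2673 CPM in WT against a mean sum of 10410 CPM. Lcn8 and Cst8 lay at 1.76 and 0.511 CPM in WT. Of 7 tested, 0 were called by edgeR and 0 had an unadjusted p under 0.05, while 4 of the 11, Adam28, Lcn9, Rnase10 and Cst11, were too low to be tested. Of the 3 distal markers, Crisp1 and Ces5a were lower in each Ocln-KO library than in any WT library without passing the test (edgeR adjusted p = 0.0855 and 0.12), and Akr1b7, abundant in the vas deferens, rose by 1.67 on the log2 scale (edgeR adjusted p = 0.0137). Of the 6 brain markers, 4 were tested and 1 rose, Mbp, which is also made outside the brain.

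**Figure D4:**
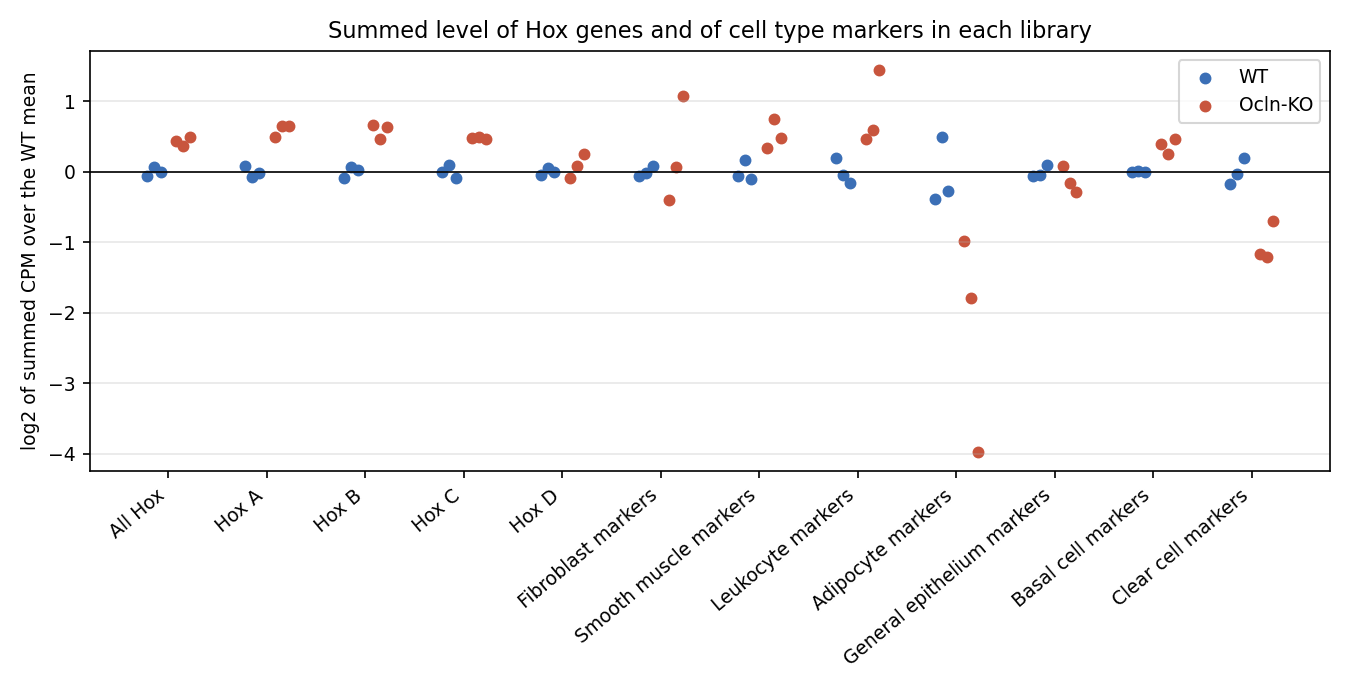
Summed CPM of all Hox genes, of each cluster and of cell type marker lists in each library, as log2 over the mean of the 3 WT libraries. The Hoxa, Hoxb and Hoxc sums lie above WT in all 3 Ocln-KO libraries and the Hoxd sum does not, while smooth muscle, leukocyte and basal cell markers lie higher and clear cell and adipocyte markers lower.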

How the data were processed

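Whole-epididymis RNA of 3 WT and 3 Ocln-KO samples was depleted of rRNA, made into directional libraries and sequenced as paired ends in 1 lane. The values the authors deposited are raw counts per gene symbol, made by alignment to GRCm38 with HISAT2 2.0.4 (per the submitters' processing notes) and counting with HTSeq. The counting mode, strand setting and treatment of reads with several alignments are not given in the sources used here. Whether each library is 1 mouse is unclear, since the methods also speak of pooled RNA, so p-values measure the spread between libraries. Columns were matched to samples by name, with 0 unmatched.

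The fit used edgeR 4.0.16 in R 4.3.3 (filterByExpr, TMM, estimateDisp, glmQLFit and glmQLFTest) on all 19691 genes that passed, and each SE (standard error) is the log2 fold change over the root of its F statistic. Alternatives used DESeq2 1.42.0, limma 3.58.1 (voom), other scaling factors and count filters, the replicate number as a block, and each library left out. Fits were tested on simulated counts. Exact permutation of 3 libraries against 3 cannot go below p = 0.1 (two-sided), so none is printed. No libraries were duplicates. Exon lengths (union of exons) and the Hoxb8 site come from GENCODE M21, positions and other sequences from RefSeq GRCm38.p6, and all 39 Hox symbols matched.

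Members and gene lists were chosen with earlier results of these data known. Values in every library are printed for Hox genes with an adjusted p under 0.05, the highest per kb in each cluster, and the 3 highest and 3 lowest fold changes. In other lists the called genes and the most abundant member are named, with a few others and the ratios chosen after their values were seen. Single values of a few genes are not reported here. Intervals and limits cover counting error or the spread between libraries only.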

Additional observations from a re-analysis of the deposited data

How the results depend on the processing

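Over 14 alternatives, no Hox gene with an adjusted p under 0.05 changed sign and 0 Hox genes were called lower. The 8 higher calls ranged from 0 to 7 with each library left out, and were 0 with the replicate block, where 15 had an unadjusted p under 0.05 and all genes gave 10 higher and 31 lower calls. The methods speak of pairs of mice, but whether the replicate numbers mark them is not stated. Deviations of same-numbered libraries had correlations of -0.053, -0.031 and -0.003, against -0.083 to 0.127 between unlike numbers, which does not settle whether they are pairs. The calls were 12 with DESeq2, 11 with total counts only, 9 without the 20 most abundant genes in the factors and 6 without a count filter, while all genes gave 1604 higher and 1708 lower calls with DESeq2 and 1174 and 674 with total counts only, which moved the median of all genes to 0.09. The median log2 fold change of the Hox genes moved to 0.57 with total counts only and lay between 0.42 and 0.51 with libraries left out. Hoxa10, near 0, changed sign with DESeq2 and RLE factors (0.0011 each), total counts only (0.0789) and factors without the 20 most abundant genes (0.0092), and ran from -0.22 to 0.35 with libraries left out. Hoxd8 changed sign with limma-voom (-0.005) and the replicate block (-0.0058), and ran from -0.16 to 0.14 with libraries left out. Hoxd1 ran from -0.13 to 1.26. The causes were not tested. In CPM in place of CPM per kb, the share of paralogs 1 to 3 rose by 3.8 percentage points in place of 2.59 and that of paralogs 4 to 8 by -2.14 in place of -0.84. With the longest RefSeq transcript as length, 9 of the 10 highest genes in WT stayed among the 10 highest. The highest Hoxa gene was then Hoxa3 in place of Hoxa5. Depth limits the genes under 3 counts, for which no change could be detected.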
